A study of Mus musculus with 4 samples.

Results

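The Slc25 genes encode the mitochondrial carriers, a family of transport proteins. The genes described here are all protein-coding genes of the deposited table with a symbol of the form Slc25a plus a number and at least 1 count in any library. They were 45 of 26144 genes with a count, spread over 19 chromosomes, and 42 of them passed the filter on low counts and were tested. Expression was measured by RNA sequencing in intestinal organoids, epithelial cultures grown from gut tissue, of wild type C57BL/6 mice aged 8-12 weeks. All organoids had received 8 Gy of irradiation and were taken 36 hours later. The vehicle group (n = 2) and the group given SGC-CBP30 (n = 2), a small molecule that binds the bromodomains of the acetyltransferases CBP and p300, differ in that compound. SGC-CBP30 replicate 2 carries the name SGC-CBP31 in its treatment label and was placed by its title, and unirradiated organoids were not analysed here. Nothing in the labels says that replicates were separate cultures or animals, so every p-value rests on a spread between 2 libraries per group that may be technical.

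The inner mitochondrial membrane is closed to most metabolites, and carriers of this family let nucleotides, phosphate, organic acids, amino acids and cofactors across it, usually as an exchange of one substrate for another. Each carrier is built of repeats of the same membrane unit, and most reach the inner membrane through a dedicated import route. In the small intestine, absorptive cells use these carriers for oxidative metabolism and for making citrulline from glutamine, with ornithine and citrulline crossing the membrane on the way.

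The libraries held 16433117 to 18087250 counts. A floor of 3 counts, used only for reading low values, corresponds to 0.170 to 0.188 CPM, counts scaled to library size. Counts of 0 were kept as 0. The 14 enterocyte markers all had counts. The 25 markers of fibroblasts, immune cells, endothelium and fat, muscle or nerve summed to at most 17.2 CPM per list and library, and Lum was among those without a counted row. Of all genes tested, 16.3% were called lower and 13.6% higher with SGC-CBP30 at an adjusted p under 0.05. Of the enterocyte markers 9 of 14 fell, 0 rose and 5 did neither. The summed level of the 14 was 50829 to 51041 CPM in vehicle and 37050 to 37344 CPM in SGC-CBP30 libraries. A large part of that fall was Sis, with group means of 15115 and 7284 CPM. The 5 not called had log2 fold changes of 0.093 (Vil1), 0.094 (Alpi), -0.013 (Mttp), -0.10 (Apoa1) and -0.26 (Fabp1). Of 8 crypt base stem cell markers 3 fell and 1, Lgr5, rose (0.56 ± 0.10, log2 fold change with its standard error), while Olfm4 fell by 1.79 ± 0.08. Of 8 Paneth cell markers 4 fell and 0 rose, of 8 goblet cell markers 2 fell and 1 rose, of 8 enteroendocrine markers 1 fell and 2 rose, and of 6 tuft cell markers 1 fell and 0 rose. The summed level of the goblet cell markers was 4493 to 4624 CPM in vehicle and 4740 to 4781 CPM in SGC-CBP30 libraries. For Paneth cell markers the sums were 4487 to 4574 and 3635 to 3989 CPM, and for stem cell markers 771 to 798 and 617 to 680 CPM. Tuft cell markers summed to 35.6 to 37.7 and 27.7 to 28.5 CPM, and enteroendocrine markers to 596 to 628 and 598 to 689 CPM, which overlap. The part of these shifts in the results that follow was not tested. In bulk RNA, fewer cells of a type and less RNA per cell cannot be told apart.

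Upstream sequence is shown for 4 genes that recur in the results: Slc25a15 and Slc25a34, which had the strongest falls among those with a promoter entry, and the aspartate/glutamate carrier genes Slc25a13 and Slc25a12, which moved in opposite directions. Each is the 250 bases before the most upstream RefSeq start on GRCm38.p6, 5′ to 3′ on the gene's strand. Capitals mark every match, on either strand, to the TATA box (searched as TATAAA), the CCAAT box (searched as CCAAT), the GC box (searched as GGGCGG) or an estrogen-related receptor motif (searched as AAGGTCA). The windows lie at chr8:22398622-22398871 (minus strand), chr4:141623835-141624084 (minus), chr6:6217174-6217423 (minus) and chr2:71367756-71368005 (minus), and none overlaps an exon of its own gene in the GENCODE M21 annotation.
Slc25a15: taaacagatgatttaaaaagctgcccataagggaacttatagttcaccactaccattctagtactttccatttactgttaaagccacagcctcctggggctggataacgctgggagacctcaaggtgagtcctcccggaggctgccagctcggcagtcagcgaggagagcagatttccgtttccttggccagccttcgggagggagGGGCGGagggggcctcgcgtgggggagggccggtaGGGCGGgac
Slc25a34: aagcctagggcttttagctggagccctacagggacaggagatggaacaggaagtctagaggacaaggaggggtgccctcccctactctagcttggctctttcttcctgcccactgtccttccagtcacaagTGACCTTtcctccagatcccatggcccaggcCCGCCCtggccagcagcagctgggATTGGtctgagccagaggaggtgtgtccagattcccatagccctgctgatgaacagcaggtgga
Slc25a13: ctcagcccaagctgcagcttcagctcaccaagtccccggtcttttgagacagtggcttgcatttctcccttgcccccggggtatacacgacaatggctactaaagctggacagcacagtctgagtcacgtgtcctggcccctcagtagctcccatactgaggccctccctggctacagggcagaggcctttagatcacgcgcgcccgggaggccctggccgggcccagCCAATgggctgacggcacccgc
Slc25a12: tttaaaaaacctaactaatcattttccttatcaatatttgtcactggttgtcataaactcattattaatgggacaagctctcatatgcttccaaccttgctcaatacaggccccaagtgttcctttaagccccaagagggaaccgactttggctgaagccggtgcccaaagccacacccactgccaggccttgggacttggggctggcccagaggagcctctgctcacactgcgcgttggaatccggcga
The Slc25a15 window held 2 GC boxes, the Slc25a34 window a GC box, a CCAAT box and the receptor motif, and the Slc25a13 window a CCAAT box. The Slc25a12 window held none of them, and 151 bases of the Slc25a15 window lie in an exon of the noncoding gene 1810012K16Rik on the opposite strand. Of the 45 genes, 34 had a promoter entry. The GC box was present in 23 of these windows (67.6%) against 33% of 27025 promoters of that length, the CCAAT box in 16 (47.1%) against 34.5%, and the TATA box and the receptor motif in 1 each (2.94%) against 13% and 4.04%. These are matches of letters and are given as a description only.

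Levels of the carriers differed far more between genes than between groups. On the length-adjusted scale of the deposited FPKM (fragments per kilobase, scaled to library size), Slc25a5, which encodes an ADP/ATP carrier of the inner membrane, stood at 708 and 732 in vehicle and 653 and 569 in SGC-CBP30 libraries. It made up 39.1% to 41.7% of the FPKM summed over the family in each library. The phosphate carrier gene Slc25a3 followed with a mean over the 4 libraries of 169 FPKM, then the citrate carrier gene Slc25a1 with 121, Slc25a45 with 76.6, the oxoglutarate/malate carrier gene Slc25a11 with 66.7 and the ATP-Mg/phosphate carrier gene Slc25a24 with 60.5. The 6 highest genes of a library together held 70.7% to 72.4% of its summed FPKM. In all, 19 genes had a mean above 10 FPKM and 10 a mean below 1 FPKM. Slc25a41, Slc25a2 and Slc25a21 had 4, 4 and 1 counts over the 4 libraries and were not tested. Slc25a31, an ADP/ATP carrier gene of germ cells, and Slc25a54 had no row with a count and so lie outside the 45 genes. Genes with 0 counts and genes missing from the cut table were not told apart. The family as a whole took 0.507% and 0.512% of all counts in vehicle and 0.467% and 0.449% in SGC-CBP30 libraries.

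**Figure D1:**
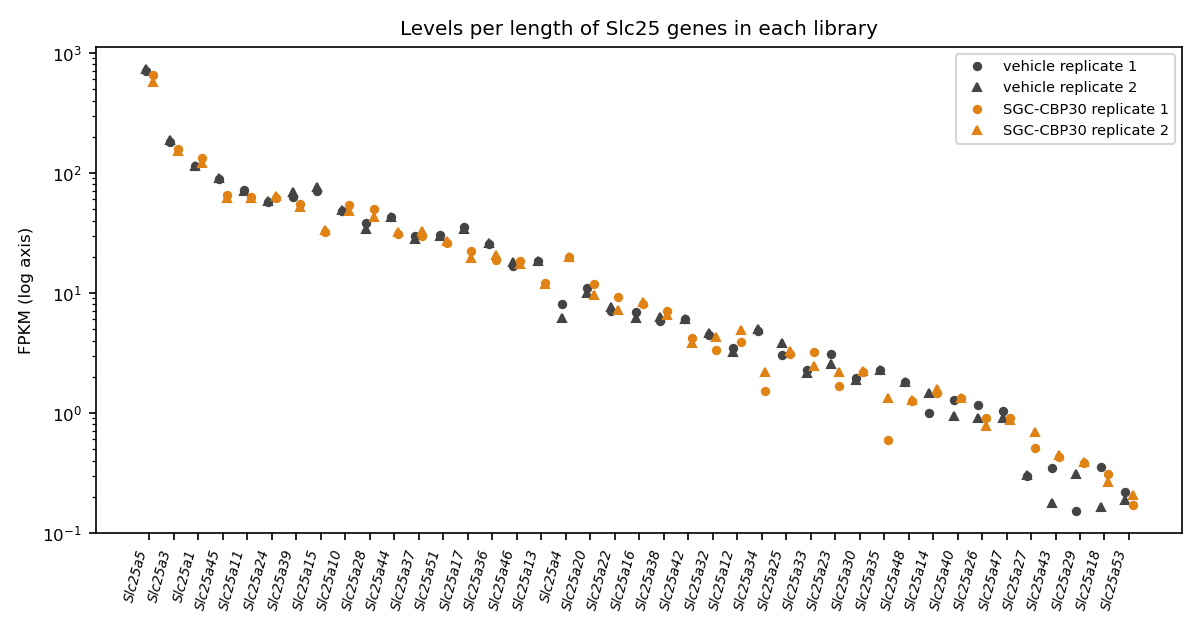
FPKM (log axis) of 41 of the 42 tested Slc25 genes, in order of their mean, with each point 1 library (circles replicate 1, triangles replicate 2; dark vehicle, orange SGC-CBP30). Slc25a5 lies above all others in each library, and the groups separate most for Slc25a4, Slc25a15, Slc25a34 and Slc25a35.

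With SGC-CBP30, 20 of the 42 tested carriers changed (47.6%), against 30.0% of all 14684 genes tested at an adjusted p under 0.05 (quasi-likelihood test in edgeR, adjustment after Benjamini and Hochberg). Of these, 15 fell (35.7%, against 16.3% of all genes) and 5 rose (11.9%, against 13.6%). The share that rose was therefore near the background, while the share that fell was above it. Changes were mostly small: 13 of the 20 were under 1.5-fold, and the median log2 fold change of the 15 that fell was -0.50. The median over all 42 was -0.04, beside 0.0096 over all genes. Among the 11436 genes with at least 50 counts in 2 libraries, the shares were 36.4% called, 20.3% lower and 16.1% higher, against 20 of 36 carriers called (55.6%), 15 of them lower (41.7%). Vehicle and SGC-CBP30 libraries were fully separated for 34 of 42 carriers (81.0%), against 63.1% of all genes.

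Calls for 10 of the 20 held in all 10 alternative analyses: Slc25a4, which rose, and Slc25a13, Slc25a15, Slc25a17, Slc25a34, Slc25a35, Slc25a36, Slc25a42, Slc25a44 and Slc25a45, which fell. Without vehicle replicate 2 the counts were 1 higher and 10 lower, without vehicle replicate 1 they were 4 and 12, without SGC-CBP30 replicate 1 they were 6 and 14, and without the library labelled SGC-CBP31 they were 7 and 16. Scaling by library totals alone gave 9 higher and 13 lower, so that 40.9% of the called carriers were higher in place of 25%, while over all genes that share went from 45.5% to 60.2% and the median log2 fold change from 0.0096 to 0.0826. DESeq2 called 2 carriers higher and 12 lower (14.3% of its calls higher). In the authors' deposited table, 2 carriers were higher and 12 lower at an adjusted p under 0.05. Those values come from the same libraries and are not a separate check.

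**Figure D2:**
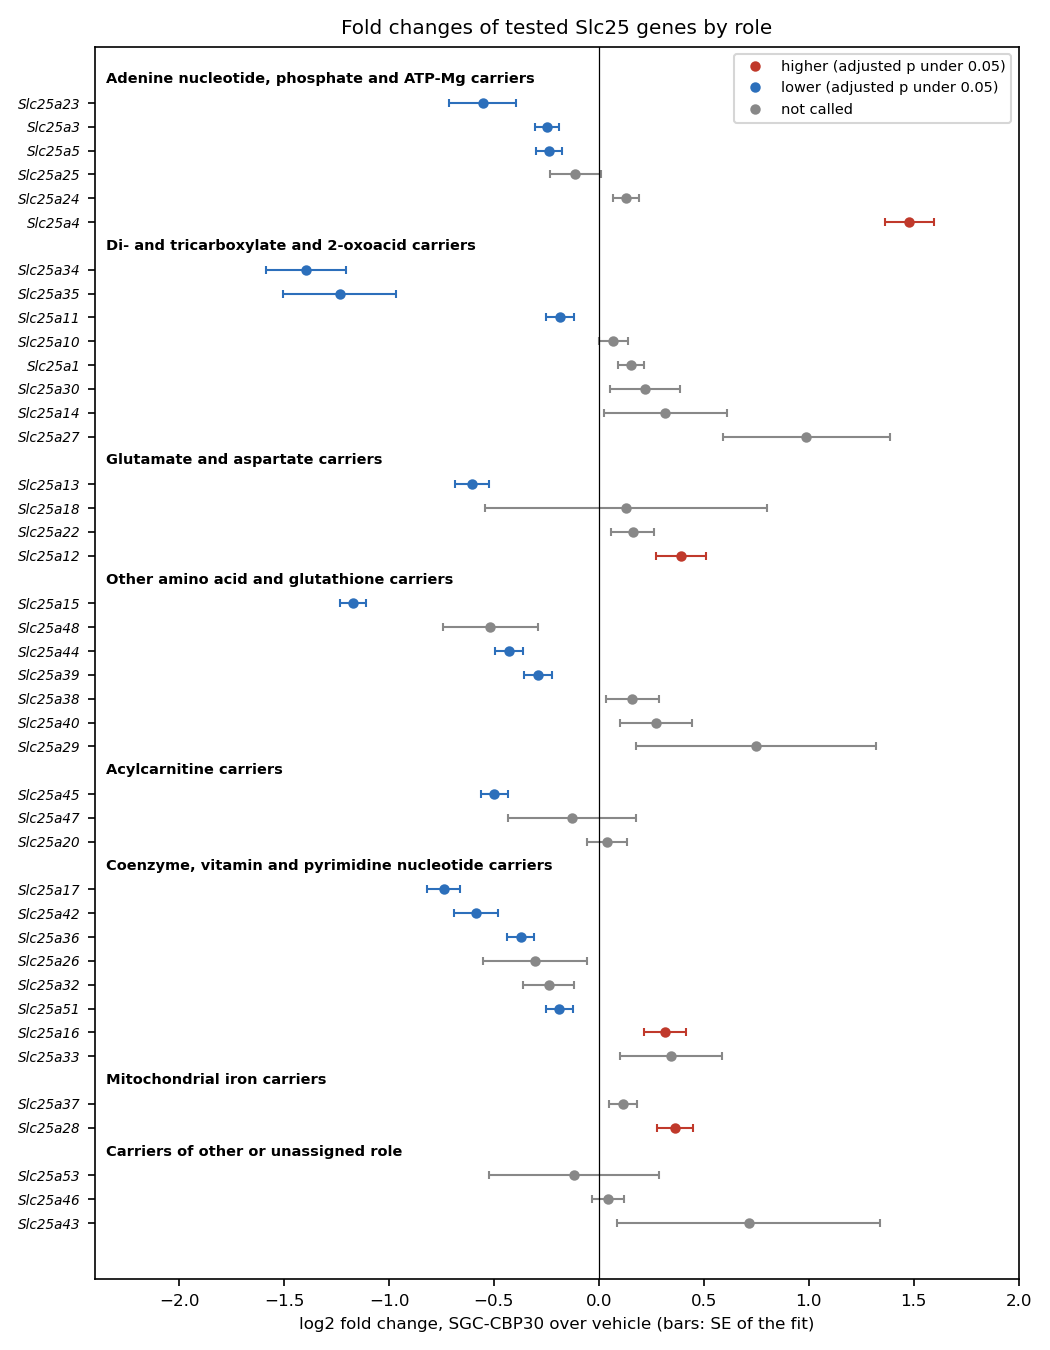
Log2 fold changes of SGC-CBP30 over vehicle for 41 of the 42 tested Slc25 genes, grouped by role, with bars of 1 standard error of the edgeR fit. Blue points (15) were called lower and red points (4) higher at an adjusted p under 0.05. Slc25a34 is lowest at -1.40 and Slc25a4 highest at 1.48.

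The carrier genes of energy transfer did not all change in the same direction. Slc25a4, the ADP/ATP carrier gene best known from heart and muscle (ENSMUSG00000031633, chromosome 8), was at 19.0 and 14.7 CPM in vehicle and 47.3 and 47.0 CPM in SGC-CBP30 libraries. Both treated libraries lay far above both controls, and the gene rose 2.79-fold, a log2 fold change of 1.48 ± 0.12 (SE; edgeR adjusted p = 2.57e-10). Slc25a4 was the 1 carrier of 42 tested that was called at least 2-fold higher, a size reached by 1.53% of all genes. Slc25a5 fell in the same libraries, from 1175 and 1209 CPM to 1081 and 941 CPM, a log2 fold change of -0.24 ± 0.06 (edgeR adjusted p = 0.00522). Leaving out vehicle replicate 2 took it out of the called genes (adjusted p = 0.124), and the log2 fold change was -0.14 without SGC-CBP30 replicate 2. The ratio of Slc25a5 to Slc25a4 in FPKM was 88.3 and 118 in vehicle and 32.7 and 28.6 in SGC-CBP30 libraries, so Slc25a5 remained the more abundant of the pair in each library. No 50-base run was shared between transcripts of any of the 45 genes, but 33.8% of the distinct 50-base runs of Slc25a5 occur in 9 pseudogenes, which leaves its counts uncertain. Of those pseudogenes 4 had counts, summing to 330 to 384 per library. Slc25a37 (7.0%), Slc25a36 (6.7%) and Slc25a20 (5.6%) also shared over 5% of their runs with other genes.

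Slc25a3, which brings in the phosphate for ATP synthesis, fell from 1009 and 1041 CPM to 885 and 844 CPM (log2 fold change -0.25 ± 0.06, edgeR adjusted p = 0.00168), a change not called when vehicle replicate 2 was left out (adjusted p = 0.114). The calcium-regulated ATP-Mg/phosphate carriers adjust the size of the matrix adenine nucleotide pool. Slc25a23 fell from 16.5 and 13.5 CPM to 8.94 and 11.6 CPM (-0.55 ± 0.16), but was not called by DESeq2 (adjusted p = 0.0913) or when leaving out vehicle replicate 1 (adjusted p = 0.154) or SGC-CBP30 replicate 1 (adjusted p = 0.0941). Its relatives Slc25a24 and Slc25a25 had log2 fold changes of 0.13 ± 0.06 and -0.11 ± 0.12 and were not past the threshold. In total 1 of the 6 tested carriers of this group rose and 3 fell (all genes: 13.6% higher, 16.3% lower).

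The ornithine carrier gene Slc25a15 had the smallest adjusted p of the family. Its product exchanges ornithine for citrulline across the inner membrane, a step shared by the urea cycle of liver and the citrulline synthesis of gut. Slc25a15 (ENSMUSG00000031482, chromosome 8, 22375551 to 22398597, minus strand) was at 403 and 431 CPM in vehicle and at 183 and 187 CPM in SGC-CBP30 libraries. The replicates lay close together in each group, and the gene was 2.25-fold lower, with a log2 fold change of -1.17 ± 0.06 (edgeR adjusted p = 1.62e-13). In FPKM it was the fifth most abundant carrier of the vehicle group, at 73.7, and reached 32.7 in the SGC-CBP30 group. The second ornithine carrier gene, Slc25a2, had 0 counts in both vehicle libraries and 1 and 3 counts in the SGC-CBP30 libraries, at or under the floor of 3.

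Transcripts of enzymes that act on either side of this exchange were mostly lower too. Of the 10 tested ornithine, citrulline and proline enzyme genes 7 fell, 2 rose and 1 did neither (all genes: 16.3% lower, 13.6% higher). Their median log2 fold change was -0.62. Cps1, the mitochondrial enzyme that makes carbamoyl phosphate, fell from 897 ± 24.5 to 368 ± 12.1 CPM (SD, n = 2). Otc, which joins carbamoyl phosphate to ornithine to give citrulline, fell from 142 ± 2.97 to 67.3 ± 0.888 CPM (SD, n = 2). Chosen after their values were seen, the ornithine aminotransferase gene Oat had a log2 fold change of -0.44 ± 0.06, the arginase gene Arg2 -0.80 ± 0.07, the proline oxidase gene Prodh -1.20 ± 0.20 and the citrulline-using Ass1 -0.97 ± 0.23, all called lower, as was Aldh18a1 (-0.34 ± 0.06), which starts proline and ornithine synthesis from glutamate. Asl, which acts after Ass1, rose by 0.45 ± 0.11, but was not called when SGC-CBP30 replicate 1 was left out (adjusted p = 0.079).

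Among the other amino acid and glutathione carriers, Slc25a44 and Slc25a39 fell. Slc25a44, which carries branched-chain amino acids, went from 153 and 152 CPM to 112 and 116 CPM (log2 fold change -0.43 ± 0.07, edgeR adjusted p = 1.93e-05). Slc25a39, a mitochondrial glutathione carrier gene, went from 174 and 190 CPM to 152 and 145 CPM (-0.29 ± 0.07), a change not called when vehicle replicate 2 was left out (adjusted p = 0.15). Its relative Slc25a40 was far lower on the FPKM scale, with a Slc25a39 to Slc25a40 ratio of 39.3 to 73.1 over the libraries, and had a log2 fold change of 0.27 ± 0.17 that was not past the threshold. The same holds for Slc25a38, a glycine carrier gene of haem synthesis (0.16 ± 0.13), Slc25a48, linked to choline import (-0.52 ± 0.23), and Slc25a29, a carrier gene for basic amino acids (0.75 ± 0.57), which had 7 to 18 counts per library.

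The aspartate/glutamate carriers, which drive the malate-aspartate shuttle for NADH, changed in opposite directions. Slc25a13 (citrin; ENSMUSG00000015112, chromosome 6, minus strand) fell from 70.1 and 69.6 CPM to 46.5 and 45.4 CPM, a log2 fold change of -0.60 ± 0.08 (edgeR adjusted p = 1.97e-06). Slc25a12 (aralar; ENSMUSG00000027010, chromosome 2, minus strand) was at 25.9 and 23.6 CPM in vehicle and at 28.5 and 36.5 CPM in SGC-CBP30 libraries. It rose by 0.39 ± 0.12 (edgeR adjusted p = 0.0142), a change not called by DESeq2 (adjusted p = 0.088) or when leaving out vehicle replicate 2 (adjusted p = 0.0937) or the library labelled SGC-CBP31 (log2 fold change 0.20, adjusted p = 0.263). The Slc25a13 to Slc25a12 ratio in FPKM was 5.23 and 5.70 in vehicle and 3.15 and 2.40 in SGC-CBP30 libraries, with no overlap. The glutamate carrier genes Slc25a22 (0.16 ± 0.10) and Slc25a18 (0.13 ± 0.67, 5 to 12 counts per library) were not past the threshold.

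**Figure D3:**
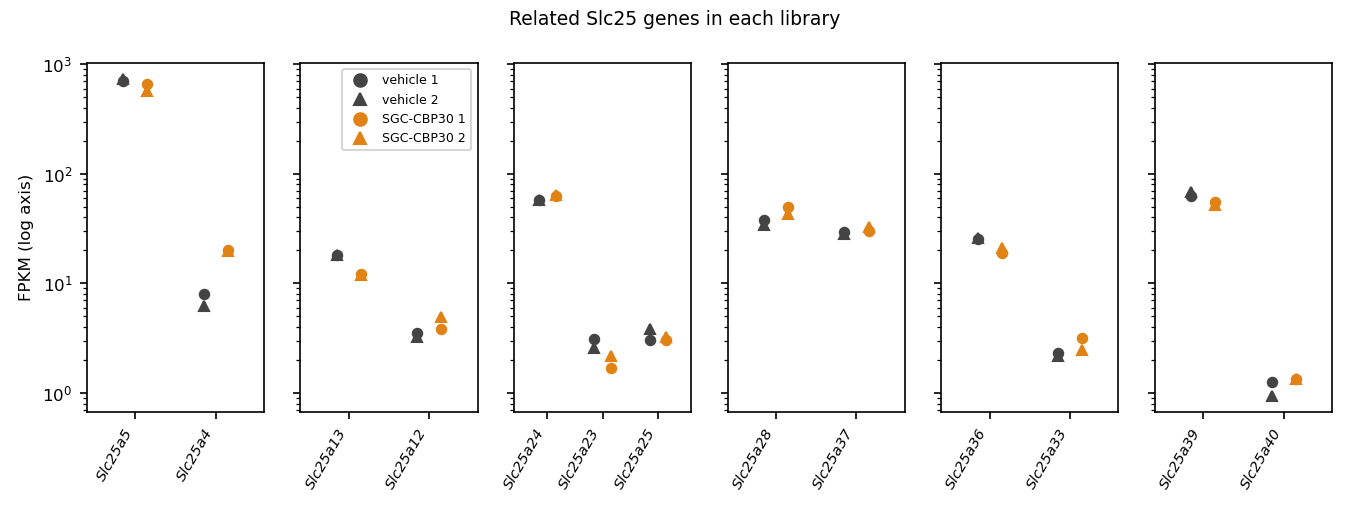
FPKM (log axis) of related Slc25 genes in each library (circles replicate 1, triangles replicate 2; dark vehicle, orange SGC-CBP30). Slc25a5 and Slc25a4 approach each other with SGC-CBP30, as do Slc25a13 and Slc25a12, with FPKM ratios of 28.6 to 32.7 and 2.40 to 3.15 in the SGC-CBP30 libraries against 88.3 to 118 and 5.23 to 5.70 in vehicle.

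Of the organic acid carriers, Slc25a34 and Slc25a35 fell most. Their proteins resemble dicarboxylate carriers in sequence, and their substrates are less well defined. Slc25a34 (ENSMUSG00000040740, chromosome 4, minus strand) was at 12.9 and 13.3 CPM in vehicle and 4.06 and 5.87 CPM in SGC-CBP30 libraries, 2.63-fold lower (log2 fold change -1.40 ± 0.19, edgeR adjusted p = 3.37e-06). Slc25a35 was at 8.38 and 8.34 CPM in vehicle and 2.18 and 4.90 CPM in SGC-CBP30 libraries (-1.23 ± 0.27, edgeR adjusted p = 0.00116), and its log2 fold change ranged from -0.77 without SGC-CBP30 replicate 1 to -1.94 without replicate 2. Of the exon bases of Slc25a35, 31.3% overlap Rangrf on the opposite strand, and strand use is not given in the sources used here. Rangrf itself had 0, 0, 0 and 2 counts in the 4 libraries. Together with Slc25a15 these were the 3 carriers called at least 2-fold lower, a size reached by 4.41% of all genes.

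Slc25a11, which exchanges oxoglutarate for malate and is the other carrier of the malate-aspartate shuttle, fell from 153 and 150 CPM to 133 and 133 CPM (-0.19 ± 0.07, edgeR adjusted p = 0.0337). It was not called in 5 of the 10 alternatives: library totals (log2 fold change -0.11, adjusted p = 0.196), DESeq2 (0.0937), no filter on low counts (0.0718) and leaving out vehicle replicate 1 (0.311) or 2 (0.234). Slc25a1, which exports citrate for fatty acid and sterol synthesis, was at 247 and 250 CPM in vehicle and 288 and 265 CPM in SGC-CBP30 libraries, higher without overlap but not called (0.15 ± 0.06, edgeR adjusted p = 0.0628). The dicarboxylate carrier gene Slc25a10 had 0.068 ± 0.069, and Slc25a30, Slc25a14 and Slc25a27, relatives of the uncoupling proteins, had log2 fold changes of 0.22 ± 0.17, 0.32 ± 0.29 and 0.99 ± 0.40. None of these was past the threshold, and Slc25a27 had only 19 to 48 counts per library.

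Transcripts of several soluble partners of the shuttles were lower. Among the 10 tested malate-aspartate shuttle and citrate enzyme genes 5 fell, 1 rose and 4 did neither (all genes: 16.3% lower, 13.6% higher). Their median log2 fold change was -0.19. The cytosolic aspartate aminotransferase gene Got1 fell by 0.76 ± 0.07 on the log2 scale, and the glycerol 3-phosphate dehydrogenase gene Gpd1, of the alternative NADH shuttle, by 1.00 ± 0.06. The malate dehydrogenase gene Mdh1 and the mitochondrial aminotransferase gene Got2, named after their values were seen, had log2 fold changes of -0.34 ± 0.06 and -0.37 ± 0.07 and were called lower. Chosen in the same way, the malic enzyme gene Me1 was called higher (0.32 ± 0.08) except when vehicle replicate 1 was left out (adjusted p = 0.0785).

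Of the carriers for coenzymes, vitamins and pyrimidine nucleotides, 4 of 9 fell and 2 rose (all genes: 16.3% lower, 13.6% higher). Slc25a17, the peroxisomal carrier gene for coenzyme A, FAD and NAD, fell from 102 and 97.0 CPM to 63.5 and 55.7 CPM (log2 fold change -0.74 ± 0.08, edgeR adjusted p = 7.43e-08). Slc25a42, which brings coenzyme A into mitochondria, fell from 36.4 and 36.1 CPM to 25.5 and 22.8 CPM (-0.59 ± 0.11, edgeR adjusted p = 0.000137). Transcripts of these coenzyme A carriers of peroxisome and mitochondrion were thus 1.67-fold and 1.5-fold lower. In contrast Slc25a16, long linked to coenzyme A handling, rose from 33.8 and 29.7 CPM to 39 and 40.1 CPM (0.32 ± 0.10, edgeR adjusted p = 0.0186), a change that DESeq2 did not call (adjusted p = 0.106), nor edgeR when vehicle replicate 2 was left out (adjusted p = 0.251).

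The pyrimidine nucleotide carrier gene Slc25a36 fell from 245 and 249 CPM to 181 and 201 CPM (-0.37 ± 0.06, edgeR adjusted p = 7.99e-05). Its relative Slc25a33 was lower in FPKM in every library and not past the threshold (0.34 ± 0.24). The NAD carrier gene Slc25a51 fell from 169 and 166 CPM to 144 and 149 CPM (-0.19 ± 0.06, edgeR adjusted p = 0.0288). It was not called in the same 5 alternatives as Slc25a11, with a log2 fold change of -0.12 under library totals (adjusted p = 0.178) and adjusted p of 0.0772 in DESeq2, 0.0574 with no filter, and 0.299 and 0.216 when leaving out vehicle replicate 1 or 2. The S-adenosylmethionine carrier gene Slc25a26 (-0.30 ± 0.25) and the folate and FAD carrier gene Slc25a32 (-0.24 ± 0.12) were not past the threshold. Of 7 tested mitochondrial folate enzyme genes Shmt2, which makes glycine from serine, fell (-0.39 ± 0.07), 0 rose and 6 did neither. Over all genes tested the shares were 16.3% lower and 13.6% higher.

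**Figure D4:**
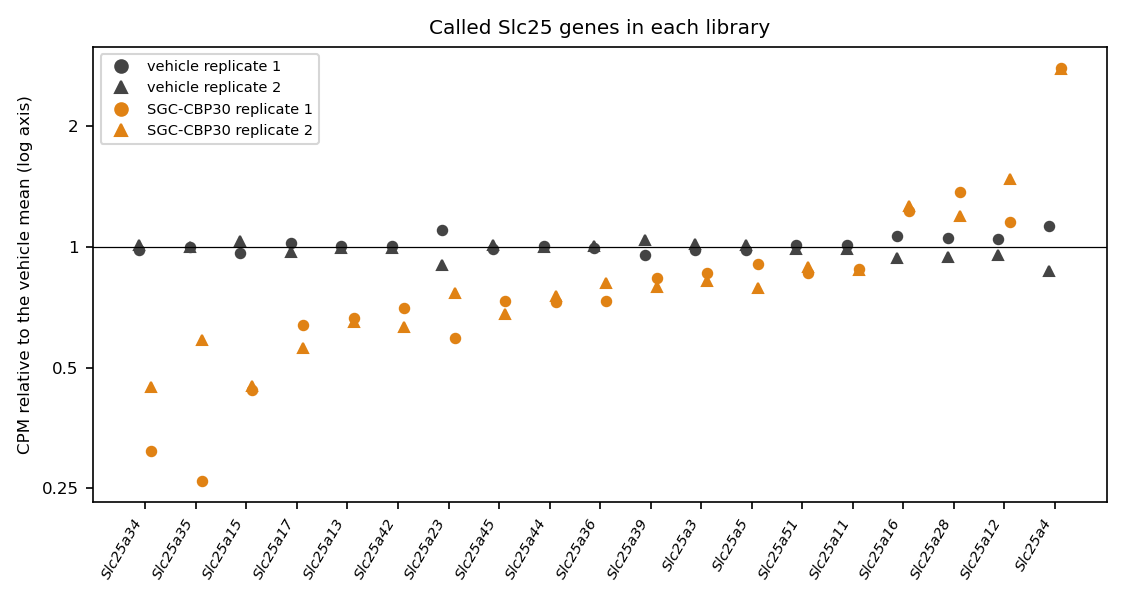
CPM of 19 of the 20 called Slc25 genes in each library, divided by the gene's vehicle mean (log axis; circles replicate 1, triangles replicate 2; dark vehicle, orange SGC-CBP30). No gene has overlapping groups, and the treated replicates lie furthest apart for Slc25a35, at 2.18 and 4.90 CPM.

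Transcripts for fatty acid entry through carnitine showed a mixed picture. Slc25a20, the carnitine-acylcarnitine carrier gene, was at 53.1 and 48.3 CPM in vehicle and 57.5 and 46.8 CPM in SGC-CBP30 libraries, overlapping, with a log2 fold change of 0.039 ± 0.095. Slc25a45, placed in the same list and with a less settled substrate, was abundant and fell from 237 and 241 CPM to 176 and 163 CPM (-0.50 ± 0.06, edgeR adjusted p = 1.13e-06). Slc25a47, a liver carrier gene, had 43 to 55 counts per library and -0.13 ± 0.30. Of the 8 tested carnitine shuttle enzyme genes 4 fell, 2 rose and 2 did neither (all genes: 16.3% lower, 13.6% higher). Cpt1a, which attaches fatty acids to carnitine at the outer membrane, rose by 0.70 ± 0.07, whereas Acsl1, which activates fatty acids with coenzyme A, fell by 0.62 ± 0.07 on the log2 scale. Chosen after their values were seen, Crat (-0.55 ± 0.07), Crot (-0.30 ± 0.06) and Acsl5 (-0.19 ± 0.06) were called lower and Cpt2, which frees the fatty acid from carnitine in the matrix, higher (0.17 ± 0.07). Of these, Cpt2 was not called in 5 of the 10 alternatives, Acsl5 in 3 and Crot in 1.

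The mitoferrins bring iron to the matrix for haem and iron-sulfur clusters. Slc25a28 (mitoferrin 2) was at 57.8 and 51.8 CPM in vehicle and 75.4 and 65.6 CPM in SGC-CBP30 libraries and rose by 0.36 ± 0.09 (edgeR adjusted p = 0.00222), a change not called when vehicle replicate 2 was left out (adjusted p = 0.0814). Slc25a37 (mitoferrin 1) had 0.12 ± 0.07 and was not past the threshold. Slc25a28 was the higher of the pair on the FPKM scale in each library, at 1.21 to 1.65 times Slc25a37. In CPM the order was the reverse, with Slc25a37 at 170 to 198 CPM. The FPKM order rests on deposited lengths of 1514 bases for Slc25a28 and 6021 for Slc25a37. GENCODE M21 transcripts of Slc25a28 held 3933 distinct 50-base runs, more than its deposited length, so which gene is more abundant is uncertain. Of 10 tested haem and iron-sulfur enzyme genes 2 rose, 3 fell and 5 did neither (all genes: 13.6% higher, 16.3% lower). The genes that rose encode the first and the last enzyme of haem synthesis, Alas1 (1.21 ± 0.06, from 199 ± 4.17 to 460 ± 6.71 CPM, SD, n = 2) and Fech (0.44 ± 0.08). Ppox (-0.39 ± 0.08), an enzyme near the end of the same route, Glrx5 (-0.41 ± 0.09) and Abcb10 (-0.31 ± 0.08) were called lower and were chosen after their values were seen. Abcb10 was not called when vehicle replicate 1 (adjusted p = 0.0629) or 2 (adjusted p = 0.058) was left out.

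Carriers of other or unassigned role were not past the threshold. Slc25a46, whose protein sits in the outer membrane and acts in mitochondrial shape, had a log2 fold change of 0.041 ± 0.076, and the weakly expressed Slc25a43 and Slc25a53 had 0.71 ± 0.63 and -0.12 ± 0.41. Of 3 tested relatives with other symbols 1 was called lower, 1 higher and 1 neither (all genes: 16.3% lower, 13.6% higher). Mtch2 had -0.22 ± 0.06 and Mtch1 0.22 ± 0.08, calls that were lost without either vehicle replicate (adjusted p of 0.206 and 0.0696 for Mtch2 and 0.13 and 0.291 for Mtch1, without replicates 1 and 2), and Mtch1 was also not called by DESeq2 (adjusted p = 0.137) or when SGC-CBP30 replicate 1 was left out (adjusted p = 0.214). The uncoupling protein gene Ucp2, named after its values were seen, was at 1385 ± 48.2 CPM in vehicle and 1474 ± 57.0 CPM in SGC-CBP30 libraries (SD, n = 2) and not past the threshold.

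Carriers are made in the cytosol, and most are inserted through the outer membrane receptor Tomm70a and the small Timm chaperones. Of 10 tested import genes 4 fell, 1 rose and 5 did neither: Tomm70a had a log2 fold change of -0.49 ± 0.06 and Timm9 -0.73 ± 0.13. The others, chosen after their values were seen, were less settled: Timm10 (-0.61 ± 0.21) was not called in 5 of the 10 alternatives, Timm8a1 (-0.56 ± 0.15) in 2 and Agk, which rose (0.58 ± 0.21), in 5. Of 9 other membrane transport genes (porins, pyruvate carrier, sideroflexins) the serine transporter gene Sfxn1 fell (-0.51 ± 0.06), Sfxn3 rose (0.58 ± 0.14, not called when vehicle replicate 1 was left out, adjusted p = 0.0538) and 7 were not past the threshold. Among 10 regulators of mitochondrial biogenesis 5 fell and 0 rose. The coactivator gene Ppargc1a fell from 47.8 ± 0.657 to 15.7 ± 3.21 CPM (SD, n = 2), a log2 fold change of -1.61 ± 0.12. Its relative Ppargc1b had -0.39 ± 0.11, a change that DESeq2 did not call (adjusted p = 0.0694), nor edgeR when vehicle replicate 1 was left out (adjusted p = 0.186). Also called lower, and chosen after their values were seen, were Tfam (-0.32 ± 0.10), which maintains mitochondrial DNA, Tfb2m (-0.35 ± 0.12) and Ppara (-0.21 ± 0.08), which were not called in 3, 4 and 6 of the 10 alternatives. Over all partner lists 31 of 77 tested genes fell and 10 rose, with a median of -0.12. Beside this total and the list counts above stand 16.3% lower and 13.6% higher over all genes tested.

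**Figure D5:**
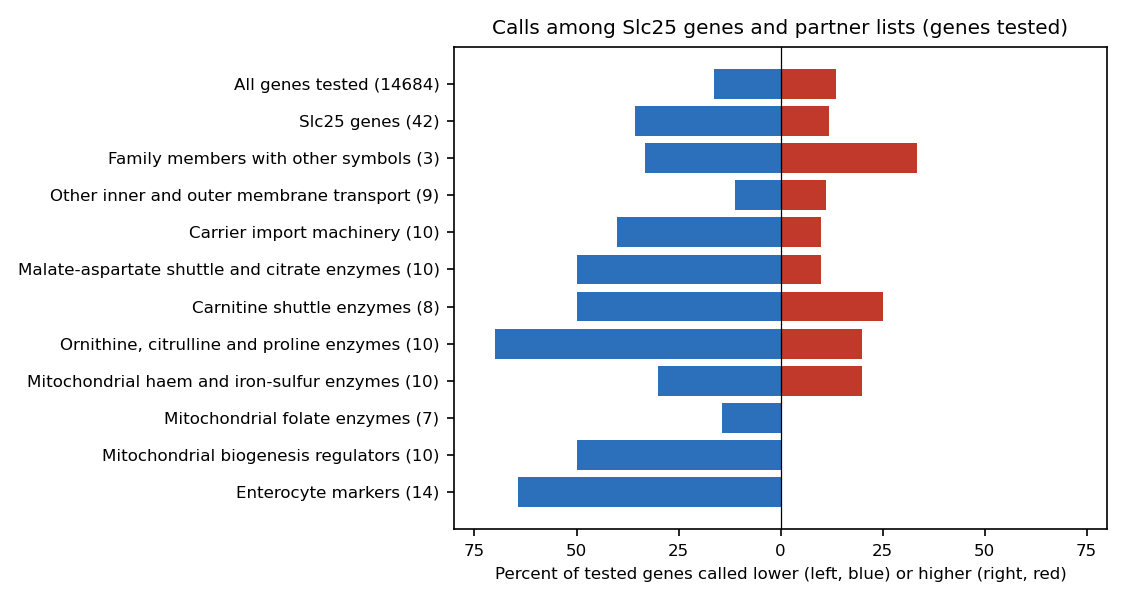
Percent of tested genes called lower (blue, left) or higher (red, right) among all genes, the Slc25 genes, the partner lists and the enterocyte markers, with the number tested in brackets. The ornithine, citrulline and proline enzymes show 7 of 10 lower, the Slc25 genes 15 of 42, and all genes 16.3% lower.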

How the data were processed

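All values came from 1 deposited table. It holds, per the file headers, raw counts of each gene in each library, and FPKM, which the authors scaled by gene length and library size. The deposited group means are a signal on the scale of normalized counts and were not used. The authors' deposited log2 fold change and p-value (adjusted) come from a test that the sources used here do not name. featureCounts 1.5.0-p3, HISAT2 2.0.5 and StringTie 1.3.3b stand without roles, beside build mm9, per the submitters' processing notes. The gene coordinates are those of GRCm38, however: 97.3% of 26128 shared identifiers match GENCODE M21, and 42 of the 45 Slc25 genes. The table stops within its last line, and genes beyond it were not used.

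Tests used edgeR 4.0.16 in R 4.3.3, with filterByExpr, TMM factors of 0.972 to 1.03, robust dispersions and a quasi-likelihood F test between SGC-CBP30 and vehicle libraries, without covariates, adjusted by Benjamini-Hochberg over all 14684 genes tested. Genes with an adjusted p under 0.05 are the called ones. CPM use the TMM factors, and an SE is the log2 fold change divided by the square root of F. Lists are described by counts and medians. The fit was tested on simulated data. Alternatives were DESeq2 1.42.0, other scalings and filters, a replicate block and leaving out each library. Floors cover counting error only. How the authors' counting treated reads that map to several places is not given in the sources used here.

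The genes and lists were chosen with earlier results of these data known. Named were all called carriers, the 6 of highest mean FPKM, relatives of called carriers, untested carriers, and from each partner list the 2 called genes of smallest p, or 1 gene in a list with no call. Other carriers are given so that members have a value each, some genes are counted but not reported here, and other genes are said to be named after their values were seen.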

Additional observations from a re-analysis of the deposited data

How the results depend on the processing

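Over all genes, 4401 were called, against 2722 in DESeq2 and 2899 to 4557 when 1 library was left out, and those called higher went from 2004 to 1070 in DESeq2, 1236 without vehicle replicate 1 and 1235 without vehicle replicate 2. Carriers called higher went from 5 to 9 with library totals and 2 in DESeq2, with 1 to 7 when 1 library was left out, and those called lower ranged from 10 to 16. The median log2 fold change of the carriers was -0.036, and 0.037 with library totals, so its sign differed with the scaling. It was -0.163 with at least 50 counts in 2 libraries (36 carriers tested) and -0.108 to -0.004 when 1 library was left out. The medians of 0.042 in DESeq2 and 0.054 with no filter on low counts also took in carriers outside the 42 tested. Those carriers had very few counts, so the sign of these medians cannot be set against that of the reported test. Called partner genes numbered 41, and 27 to 42 when 1 library was left out. Within single partner lists, called import genes went from 5 to 2 in DESeq2 and 2 or 3 without a vehicle replicate or SGC-CBP30 replicate 2, biogenesis regulators from 5 to 2 with library totals and 1 in DESeq2 or without vehicle replicate 1, carnitine enzymes from 6 to 3 without vehicle replicate 1, other membrane transport genes from 2 to 1 without vehicle replicate 1 and 4 without SGC-CBP30 replicate 1, and relatives with other symbols from 2 to 1 in DESeq2 or without SGC-CBP30 replicate 1 and 0 without either vehicle replicate. Where a value moved, the cause was not tested.

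Carriers not called in the reported test that changed sign did so when 1 library was left out. Slc25a10 ranged from -0.033 (without SGC-CBP30 replicate 1) to 0.16, Slc25a20 from -0.12 (same replicate; -0.021 without vehicle replicate 2) to 0.18, Slc25a22 from -0.031 (same SGC-CBP30 replicate) to 0.33, and Slc25a53 from -0.27 to 0.013 (same SGC-CBP30 replicate). Without vehicle replicate 2, Slc25a18 was -0.30 (up to 0.80 otherwise) and Slc25a25 0.062 (down to -0.27 otherwise), and Slc25a46 ranged from -0.007 (without vehicle replicate 1) to 0.096. Carriers called under an alternative alone were Slc25a1, Slc25a24, Slc25a27 and Slc25a37 with library totals, Slc25a24 and Slc25a37 without SGC-CBP30 replicate 1, and Slc25a1, Slc25a10, Slc25a22 and Slc25a32 without the library labelled SGC-CBP31. Replicate numbers do not pair the libraries by the labels, and deviations of same-numbered libraries had a correlation of -0.024 over 14684 genes. With the replicate block 4703 genes, 5 carriers higher and 15 lower were called, and the block changed no call among the carriers. Genes with few counts limit the rest: 10 carriers had a mean below 1 FPKM.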

Other observations

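Several Slc25 genes are neighbours with no other protein-coding gene between them in GENCODE M21 (GRCm38). Slc25a29 and Slc25a47 lie head to head on chromosome 12, with 162 bases between their outermost annotated bounds. The most upstream RefSeq start of Slc25a47 lies further from Slc25a29, just after position 108851128, inside bounds that begin at 108836046. The log2 fold changes of Slc25a29 and Slc25a47 were 0.75 ± 0.57 and -0.13 ± 0.30 (SE). Neither was called, and their difference was not tested. Slc25a43 and Slc25a5 lie on the X chromosome 18448 bases apart, with 5 to 14 counts of Slc25a43 per library against 16529 to 20746 of Slc25a5. Slc25a41, with 4 counts over the 4 libraries, lies 2056 bases from Slc25a23 on chromosome 17. Slc25a54, without a counted row, lies 6461 bases from Slc25a24 on chromosome 3.

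Exon bases of 14 of the 45 genes overlap those of another gene. The overlap exceeded 10% of exon bases for Slc25a35 (31.3%) and for Slc25a33 (14.9%, with Gm13068 on the opposite strand, which had 2, 2, 2 and 0 counts). Slc25a11 shares 8.9% of its exon bases with Rnf167 on the opposite strand. Rnf167, picked here for its overlap and value, was called lower at -0.54 ± 0.09 on the log2 scale (edgeR adjusted p = 5.44e-05), and its part in the Slc25a11 value was not tested.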
